A study of Homo sapiens with 4 samples.

Results

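The histone gene cluster on chromosome 6, long known as HIST1, was described through the H3K27ac HiChIP contacts that have an end in it. In HiChIP, chromatin is fixed, neighbouring DNA ends are ligated, and an antibody then enriches the ligated pieces. The antibody used recognises H3K27ac, acetylation of lysine 27 of histone H3, which marks active promoters and enhancers. Each listed interaction joins a pair of anchor regions and carries a count of paired-end tags (PETs), given here also as CPM, the PETs per 1000000 PETs of the library. The cluster was taken as all interactions with an anchor overlapping chr6:26000000-26300000, called the first subcluster, or chr6:27050000-27900000, called the second subcluster, in build hg19. By this rule 476 of 368291 interactions belonged to it in the senescent shMETTL14 library, 361 of 270754 in senescent shMETTL3, 452 of 258943 in senescent shcontrol and 923 of 432400 in control. All libraries come from IMR90, a strain of human lung fibroblasts grown under low oxygen. The senescent cells were driven into arrest by an inducible fusion of the estrogen receptor with an activated H-RAS and carried a hairpin against METTL14, a hairpin against METTL3 or a control hairpin. METTL3 is the catalytic subunit of the RNA N6-methyladenosine methyltransferase, and METTL14 is its structural partner. The control cells are labelled as wild type with the treatment control, and the labels do not say whether they carry a hairpin or the RAS construct. METTL4 stands in place of METTL14 in the labelled protocol, and the sample labels, which give METTL14, were followed. Each group is 1 library, so no difference has a replicate check, no test was run, and all intervals are 95% intervals for counting error only. The depletion of METTL3 or METTL14 was not measured in these files.

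Replication-dependent histone genes supply the core histones H2A, H2B, H3 and H4 and the linker histone H1 that package newly made DNA. They are transcribed mainly in S phase, and their genes and transcripts gather in a nuclear compartment, the histone locus body, together with the coactivator NPAT. Cells in senescence no longer replicate their DNA. The acetylated lysine pulled down here sits on the tail of histone H3, which genes of the cluster themselves encode.

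In the order of RefSeq genes on chromosome 6, 61 genes with a HIST1 name, 53 of them protein-coding, lie in 3 runs. The run of the first subcluster holds 32 coding genes, 5 for H1, 4 for H2A, 8 for H2B, 7 for H3 and 8 for H4. The second subcluster opens with a short run of 5 coding genes, 2 for H2A, 2 for H2B and 1 for H4. It closes with a run of 16 coding genes, among them 5 for H2A, 4 for H2B, 3 each for H3 and H4, and 1 for H1. Between these runs of the second subcluster stand other genes, including PRSS16, ZNF391, ZNF184 and 41 tRNA genes. Between the subclusters lie 6 coding genes of the butyrophilin family. The gene table is on GRCh38.p14, so it gave order and names only, and no gene was placed on an anchor.

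H2A and H2B genes of the cluster often stand head to head, and many H2B promoters carry the octamer ATTTGCAT, the site of the factor OCT1, upstream of a TATA box. To show what these regulatory stretches look like, the 250 bases before the start of the first H2B gene of each run are printed, 5′ to 3′, from RefSeq on GRCh38.p14. The octamer and the TATA letters TATAAA are in capitals, wherever they occur on either strand. The stretches are chr6:26043714-26043963 (H2BC3, first run), chr6:27132796-27133045 (H2BC11, opening run of the second subcluster) and chr6:27807930-27808179 (H2BC13, closing run), all on the minus strand, and they were not converted to hg19.
H2BC3: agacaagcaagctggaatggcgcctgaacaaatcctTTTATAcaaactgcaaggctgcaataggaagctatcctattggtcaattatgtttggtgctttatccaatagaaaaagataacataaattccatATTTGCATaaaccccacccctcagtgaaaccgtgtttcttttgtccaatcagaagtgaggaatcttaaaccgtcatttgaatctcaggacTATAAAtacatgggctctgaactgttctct
H2BC11: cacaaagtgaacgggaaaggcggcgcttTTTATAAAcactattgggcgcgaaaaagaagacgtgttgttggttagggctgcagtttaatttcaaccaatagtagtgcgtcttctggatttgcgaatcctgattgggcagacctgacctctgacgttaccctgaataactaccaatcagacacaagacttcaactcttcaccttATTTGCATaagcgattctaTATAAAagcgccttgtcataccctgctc
H2BC13: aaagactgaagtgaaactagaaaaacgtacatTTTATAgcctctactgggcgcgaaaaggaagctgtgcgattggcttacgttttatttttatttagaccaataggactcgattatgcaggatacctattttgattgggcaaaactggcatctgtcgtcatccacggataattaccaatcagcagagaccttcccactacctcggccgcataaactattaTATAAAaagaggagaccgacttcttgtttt
The octamer begins 120 bases before the start in H2BC3 and 47 bases before it in H2BC11, and these letters are not in the H2BC13 window. A RefSeq promoter was found for 48 of the 53 coding genes. Each window took in the 250 bases before the start. On either strand, the octamer was in 11 of 14 H2B windows, 8 of 10 H2A windows and 1 of 8 H3 windows, and in none of 6 H1 or 10 H4 windows, against 2.03% of all 27305 genes with an entry. TATAAA was in 32 of 48 histone windows (66.7%), against 13.05% of all genes. The letters CCAAT were in 41 of 48 (85.4%), against 37.0% of all genes. They were in all windows of the other histone types but in 3 of 10 H4 windows. Windows of head-to-head genes can share bases, so these counts are not independent. A match describes the letters of a window and not binding.

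The libraries hold 936492 PETs in shMETTL14, 623930 in shMETTL3, 552029 in senescent shcontrol and 998378 in control, with spans from 5 kb to just under 2000 kb. The senescent libraries share 1 set of anchors and the control library has its own, with wider anchors here. In the first subcluster the senescent set has 21 anchors covering 94.1 kb and the control set 21 anchors covering 149 kb. In the second it has 21 anchors covering 72.9 kb, against 25 anchors covering 165 kb in the control set. Comparisons among senescent libraries therefore rest on the same anchors. Those with control do not, and the main ones are given with and without division by covered length. Fewer nuclei with a contact, fewer contacts in each nucleus and less acetylation of the anchors cannot be told apart.

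Senescent shcontrol held far fewer PETs of the histone cluster than control. The cluster took 1469 CPM in senescent shcontrol (interval 1370 to 1574) and 3039 in control (2932 to 3149), a ratio of 0.483 (0.447 to 0.523). All 5 sets of contacts were lower in CPM. Within the first subcluster there were 587 CPM in senescent shcontrol and 1189.9 in control, a ratio of 0.493 (0.435 to 0.558). Within the second there were 281 in senescent shcontrol and 730.2 in control, a ratio of 0.385 (0.321 to 0.458). Between the subclusters the ratio was lowest, 0.313 (0.236 to 0.410), with 114 CPM in senescent shcontrol, from 63 PETs, and 365 in control, from 364 PETs. From the first subcluster to the outside there were 346 CPM in senescent shcontrol and 433 in control, a ratio of 0.800 (0.671 to 0.95). From the second to the outside the ratio was 0.439 (0.339 to 0.564). The stretch between the subclusters stood at 1.12 (0.949 to 1.32), and chromosome 6 outside the cluster at 1.08 (1.06 to 1.09).

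Covered length moved with this difference. Per covered kb, divided by a single covered length for the whole cluster, the ratio was 0.908 (0.839 to 0.981). For contacts between the subclusters, divided by the product of the covered lengths, it was 1.12 (0.843 to 1.47), an interval that holds 1. Whether this ratio falls below 1 thus depends on the measure. These values are not on the same measure. Contacts within each subcluster were not divided by a product of covered lengths alone. The control set covers more, 149 kb against 94.1 kb in the first and 165 kb against 72.9 kb in the second. Such a division would therefore raise both ratios, and whether their direction would turn was not tested. By the expectation from length and span described below, the ratios of these contacts were 0.610 (0.537 to 0.690) in the first and 0.807 (0.674 to 0.961) in the second. Whether wider control anchors reflect more signal there was not tested.

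**Figure D1:**
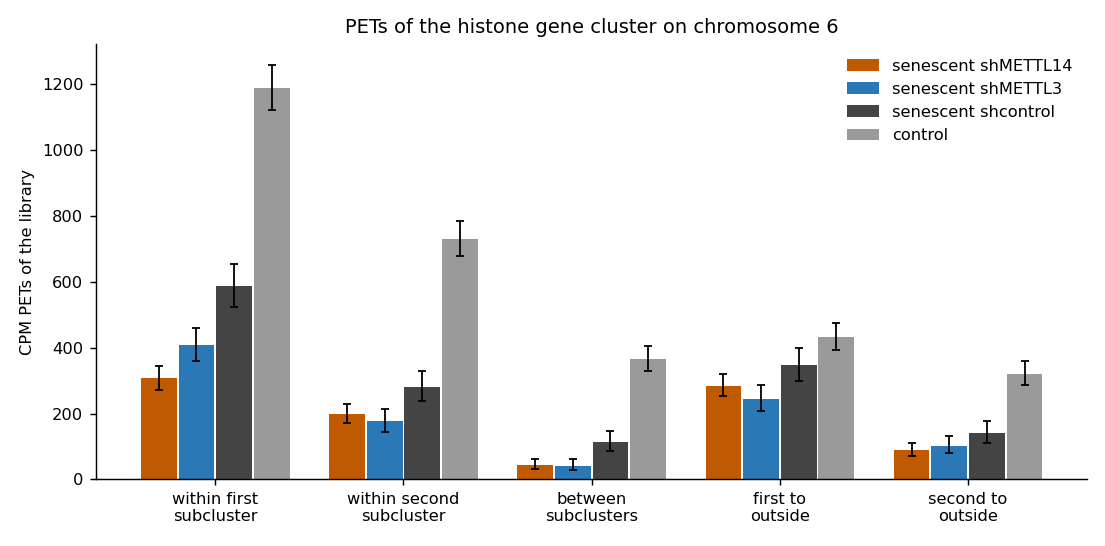
CPM (vertical axis) for 5 sets of interactions of the histone cluster in the 4 libraries. Bars are single libraries and error bars exact Poisson 95% intervals. Control is highest in every set, at 1189.9 CPM within the first subcluster, and both knockdowns are below senescent shcontrol in every set.

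Both knockdown libraries held fewer PETs of the cluster than senescent shcontrol, on the same anchors. The cluster took 926 CPM in shMETTL14 (865 to 990) and 971 in shMETTL3 (895 to 1052), against the 1469 of shcontrol. The ratios to shcontrol were 0.630 in shMETTL14 (0.572 to 0.694) and 0.661 in shMETTL3 (0.594 to 0.735). Contacts between the subclusters were lowest relative to shcontrol, with 44.8 CPM in shMETTL14 (32.3 to 60.6) and 41.7 in shMETTL3 (27.2 to 61.1), against 114 in shcontrol (87.7 to 146). These values rest on 42 PETs in shMETTL14, 26 in shMETTL3 and 63 in shcontrol. The ratios were 0.393 in shMETTL14 (0.259 to 0.590) and 0.365 in shMETTL3 (0.222 to 0.585). Over all chromosomes, PETs of the same spans stood at 1.05 in shMETTL14 and 0.826 in shMETTL3.

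Within the first subcluster shMETTL14 had 308 CPM and shMETTL3 407, against 587 in shcontrol. The ratios to shcontrol were 0.524 in shMETTL14 (0.446 to 0.616) and 0.694 in shMETTL3 (0.586 to 0.820). Here the knockdowns also differed from each other beyond counting error, with shMETTL14 at 0.755 of shMETTL3 (0.636 to 0.898). Within the second subcluster the values were 199 in shMETTL14 and 176 in shMETTL3, against 281 in shcontrol, with ratios of 0.707 in shMETTL14 (0.568 to 0.881) and 0.628 in shMETTL3 (0.487 to 0.807). Contacts from the first subcluster to the outside stood at 0.824 in shMETTL14 (0.682 to 0.997) and 0.704 in shMETTL3 (0.565 to 0.876). In shMETTL14 the interval of this ratio lay wholly above that of contacts within the first subcluster. In shMETTL3 these intervals overlap. Contacts from the second subcluster to the outside stood at 0.635 in shMETTL14 (0.461 to 0.875) and at 0.726 in shMETTL3 (0.513 to 1.02), where the interval holds 1.

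Around the cluster the libraries were closer. The stretch between the subclusters stood at 0.971 of shcontrol in shMETTL14 (0.823 to 1.15) and at 0.892 in shMETTL3 (0.742 to 1.07), and chromosome 6 outside the cluster at 1.03 in shMETTL14 and 1.01 in shMETTL3. Taken over the whole cluster, shMETTL14 stood at 0.953 of shMETTL3 (0.858 to 1.06), an interval that holds 1. Both knockdowns are set against the same shcontrol library, so the 2 ratios are not independent.

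**Figure D2:**
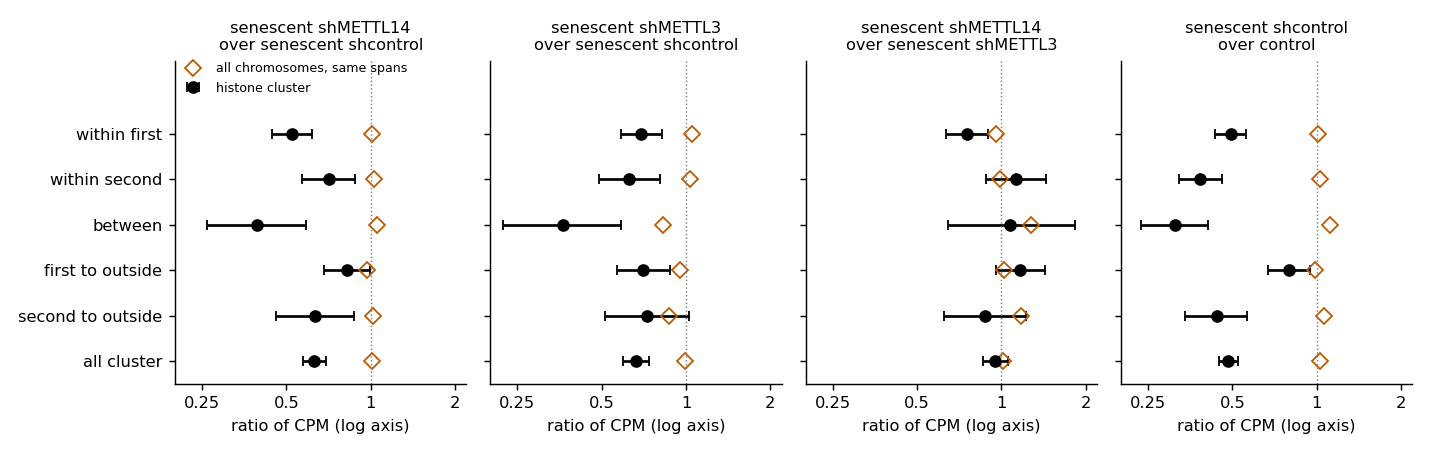
Ratio of CPM (horizontal log axis) by set of interactions for 4 pairs of libraries. Filled points with bars are the histone cluster with exact conditional binomial 95% intervals, and open diamonds are PETs of all chromosomes with the same spans. The points between subclusters sit at 0.393 for shMETTL14 and 0.365 for shMETTL3 over shcontrol and at 0.313 for senescent shcontrol over control, while the diamonds lie between 0.826 and 1.28 in every panel.

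The second subcluster was split, after its values were seen, into its outer 150 kb on the left, its outer 150 kb on the right and the 550 kb between them. Most contacts of the first subcluster with the second joined its outer parts. In senescent shcontrol, 16 PETs joined the first subcluster to the left part, 4 to the middle and 43 to the right part. In control, 123 joined it to the left part, 6 to the middle and 235 to the right part. To the right part, at the longest spans, senescent shcontrol had 77.9 CPM and control 235, a ratio of 0.331 (0.233 to 0.460). The ratio for this right part was not divided by covered length. The knockdowns were lower again there, with 16.0 CPM in shMETTL14 and 28.8 in shMETTL3, or 0.206 (0.106 to 0.378) of shcontrol in shMETTL14 and 0.370 (0.201 to 0.656) in shMETTL3.

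To the left part, shMETTL14 had 23.5 CPM and shMETTL3 11.2, against 29.0 in shcontrol. These are 22 PETs in shMETTL14, 7 in shMETTL3 and 16 in shcontrol. The ratio of 0.811 in shMETTL14 has an interval of 0.407 to 1.65, and a difference was not detectable at this depth. In shMETTL3 it was 0.387 (0.135 to 0.994). Within the right part the ratios to shcontrol were 0.544 in shMETTL14 (0.407 to 0.726) and 0.507 in shMETTL3 (0.362 to 0.705). Within the left part, 20 PETs in shMETTL14 and 21 in shMETTL3 against 13 in shcontrol gave ratios of 0.907 in shMETTL14 (0.429 to 1.98) and 1.43 in shMETTL3 (0.683 to 3.11). The left and right parts of the second subcluster were also joined to each other, by 17 PETs in senescent shcontrol against 153 in control (ratio 0.201, 0.114 to 0.332). This ratio was not divided by covered length either. In the left part chr6:27093615-27117244 covers 8.34 kb in the senescent set and 23.6 kb in the control set. In the right part chr6:27786590-27809511 covers 12.0 kb in the senescent set and 22.9 kb in the control set. The control set covers more in both parts, so division by covered length would raise these ratios to control. Whether their direction would hold was not tested.

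**Figure D3:**
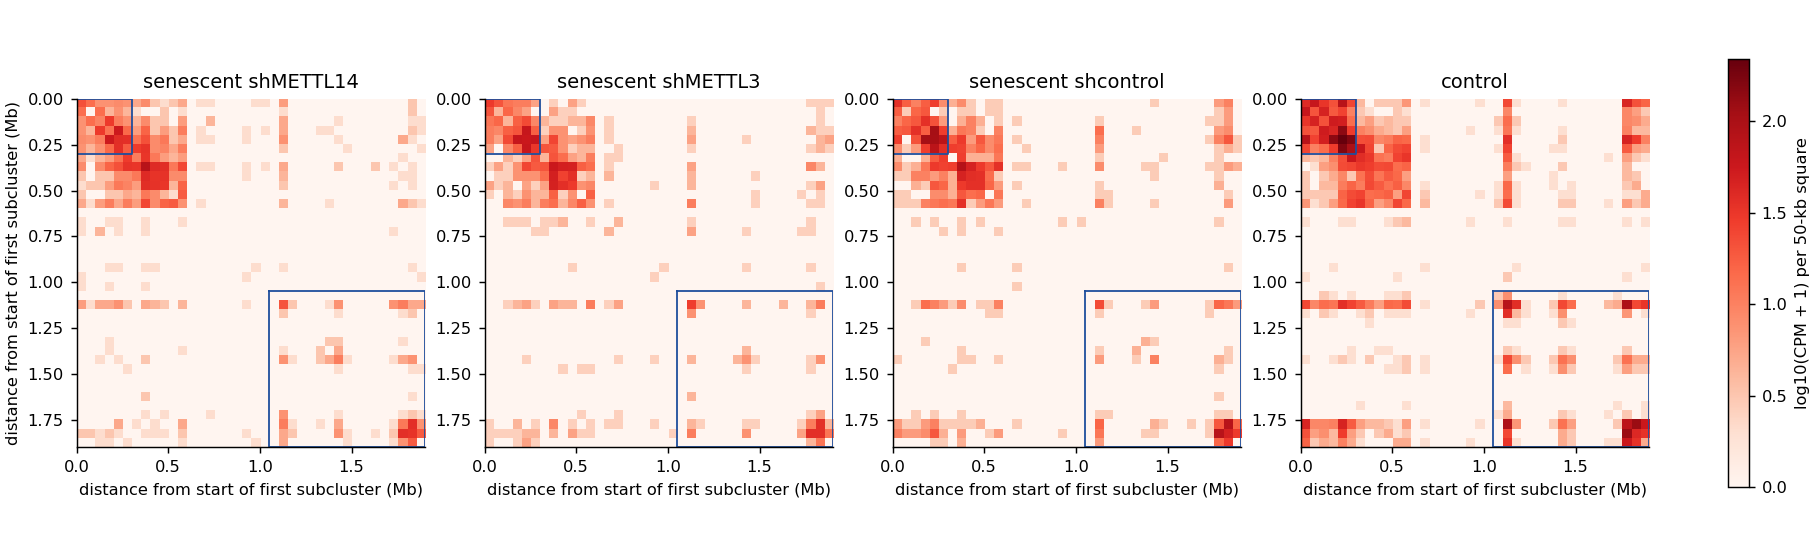
CPM in squares of 50 kb (colour, log10 scale) across the region in the 4 libraries. Both axes give the distance in Mb from the start of the first subcluster, and the blue frames mark the subclusters. The corner squares that join the subclusters are pale in the knockdowns, with 42 PETs in all in shMETTL14 and 26 in shMETTL3, and darkest in control, with 364.

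Spans of 1 to 2 Mb made up more of the cluster's PETs than of the PETs of all chromosomes in every library. They held 8.77% of the cluster's PETs in shMETTL14, 10.1% in shMETTL3, 12.0% in shcontrol and 14.9% in control. Over all chromosomes the same spans held 6.34% in shMETTL14, 4.93% in shMETTL3, 6.03% in shcontrol and 5.33% in control. PETs of 1 to 2 Mb in the cluster stood at 0.462 of shcontrol in shMETTL14 (0.337 to 0.630) and 0.556 in shMETTL3 (0.397 to 0.774), against 1.05 in shMETTL14 and 0.817 in shMETTL3 over all chromosomes. At 5 to 20 kb the ratios were 0.520 in shMETTL14 (0.419 to 0.645) and 0.620 in shMETTL3 (0.492 to 0.779), against 1.05 and 1.08 over all chromosomes. Every span bin was lower in both knockdowns. At 20 to 100 kb the ratios were 0.654 in shMETTL14 and 0.722 in shMETTL3. At 100 to 500 kb they were 0.775 in shMETTL14 (0.641 to 0.938) and 0.714 in shMETTL3 (0.576 to 0.885). At 500 to 1000 kb they were 0.661 in shMETTL14 and 0.550 in shMETTL3. For senescent shcontrol over control the ratio was 0.553 (0.467 to 0.652) at spans of 5 to 20 kb and 0.485 (0.421 to 0.557) at 20 to 100 kb. It was 0.609 (0.516 to 0.717) for spans of 100 to 500 kb and 0.312 (0.240 to 0.400) for those of 500 to 1000 kb. Spans of 1 to 2 Mb stood at 0.387 (0.308 to 0.483). Over all chromosomes the ratios of senescent shcontrol to control in these bins lay between 0.940 and 1.15.

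To take span and anchor length out, the PETs of each set were divided by those expected if all PETs of a span bin were spread over all anchor pairs of that span by the product of their lengths. Contacts between the subclusters stood above this level in all libraries, at 2.04 times in shMETTL14 (1.47 to 2.75), 2.41 in shMETTL3 (1.57 to 3.53), 5.48 in shcontrol (4.21 to 7.02) and 9.32 in control (8.38 to 10.3). On this scale the ratio of senescent shcontrol to control was 0.589 (0.443 to 0.771), lower in senescent shcontrol, unlike the ratio by covered length alone. The ratios to shcontrol were 0.372 in shMETTL14 (0.245 to 0.558) and 0.439 in shMETTL3 (0.267 to 0.704). Contacts within the first subcluster stood at 0.720 in shMETTL14 (0.639 to 0.808), 0.915 in shMETTL3 (0.806 to 1.03), 1.38 in shcontrol (1.23 to 1.54) and 2.27 in control (2.14 to 2.40). Within the second they stood at 1.05 in shMETTL14, 0.910 in shMETTL3, 1.52 in shcontrol and 1.88 in control.

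A second expectation used the PETs each anchor has at spans under 200 kb in place of its length. On that scale contacts between the subclusters stood at 2.60 in shMETTL14 (1.88 to 3.52), 2.66 in shMETTL3 (1.74 to 3.89), 2.82 in shcontrol (2.17 to 3.61) and 2.26 in control (2.03 to 2.51). The ratios to shcontrol were 0.923 in shMETTL14 (0.610 to 1.39) and 0.942 in shMETTL3 (0.573 to 1.51), and that of shcontrol to control was 1.25 (0.939 to 1.63). All 3 intervals hold 1. Long contacts between the subclusters and short contacts of the same anchors were thus lower together. On this scale, which multiplies the short contacts of both anchors, a difference in the long contacts was not detectable at this depth. By span alone, senescent shcontrol over control stood at 0.312 (0.240 to 0.400) for 500 to 1000 kb. That interval lies below the one at 5 to 20 kb, 0.467 to 0.652. The interval for 1 to 2 Mb, 0.308 to 0.483, overlaps the one at 5 to 20 kb. In both knockdowns over shcontrol, the intervals at these spans overlap.

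**Figure D4:**
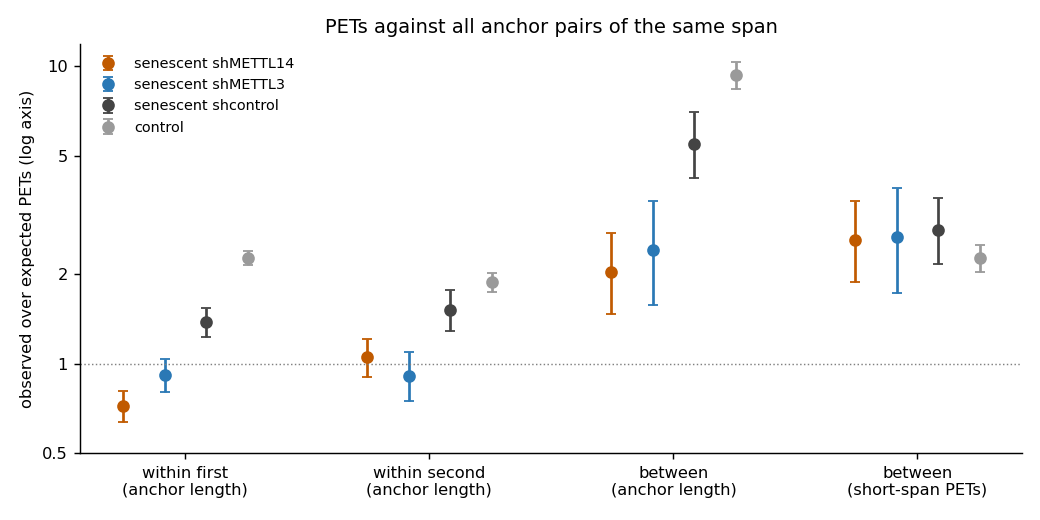
Observed over expected PETs (vertical log axis) within and between the subclusters in the 4 libraries, with exact Poisson 95% intervals. Expected PETs come from anchor length in the 3 columns on the left and from the PETs of the anchors at short spans in the column on the right. By length, contacts between the subclusters range from 2.04 in shMETTL14 to 9.32 in control, and by short-span PETs the 4 libraries lie between 2.26 and 2.82.

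Overlapping anchors of both sets were merged, which gave 50 merged anchors in the cluster, 22 in the first subcluster and 28 in the second. Of these, 31 hold anchors of both sets, and 28 of the 31 had at least 50 PETs over senescent shcontrol and control. By the size rule (at least 2-fold on the scale of log2(CPM + 1), an interval that excludes 1, and at least 50 PETs), 15 of these 28 were lower in senescent shcontrol and none higher. Over all merged anchors tested 15.4% were lower and 15.3% higher (30.7% in all). The median log2 ratio was -1.04 in the cluster and 0.00 over all anchors. Divided by covered length, 1 anchor of the cluster met the rule, as lower. Shares over all anchors are given for the main rule only, so this count has no background. For shMETTL14 over shcontrol, 8 of 21 anchors with enough PETs were lower and none higher, where 1.37% of all anchors were lower and 2.79% higher (4.16% in all). For shMETTL3 over shcontrol, 5 of 19 were lower and none higher, where 1.32% of all anchors were lower and 1.86% higher (3.18% in all). Whatever the size, 19 of the 21 had a log2 ratio below 0 in shMETTL14 and 18 of the 19 in shMETTL3. The median was -0.82 in shMETTL14, against 0.01 over all anchors, and -0.53 in shMETTL3, against -0.01 over all anchors. For shMETTL14 over shMETTL3 none of 18 met the rule, where 1.11% of all anchors were lower and 2.03% higher (3.14% in all). Anchors of the cluster share PETs with each other and both comparisons share the shcontrol library.

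The anchor with the most PETs, chr6:26193260-26208197 in the first subcluster, had 151 PETs in shMETTL14, 111 in shMETTL3, 182 in shcontrol and 398 in control. In CPM that is 161 in shMETTL14, 178 in shMETTL3, 330 in shcontrol and 399 in control. It was lower than shcontrol by the size rule in shMETTL14, with a log2 ratio of -1.03. Its PETs to the second subcluster numbered 6 in shMETTL14, 7 in shMETTL3, 16 in shcontrol and 46 in control. Next came chr6:27786590-27809511, in the right part of the second subcluster, with 97.2 CPM in shMETTL14, 101 in shMETTL3, 205 in shcontrol and 378 in control. No other anchor of the cluster was past the size rule in both knockdowns with at least 100 PETs over knockdown and shcontrol together. Its log2 ratios were -1.07 in shMETTL14 and -1.01 in shMETTL3. Its PETs to the first subcluster were 5 in shMETTL14 and 1 in shMETTL3, against 18 in shcontrol and 91 in control. At chr6:26015395-26036058, the left edge of the first subcluster, there were 91 PETs in shMETTL14, 71 in shMETTL3, 88 in shcontrol and 309 in control. Of these, 7 in shMETTL14, 3 in shMETTL3, 7 in shcontrol and 91 in control reached the second subcluster. This anchor and the previous one hold the most PETs to the other subcluster in control, and in the senescent libraries none of the anchors named here has more than 18.

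Other anchors were past the size rule in shMETTL14 with at least 100 PETs over shMETTL14 and shcontrol together. Of these, chr6:26221490-26228152 had 52 PETs against 68 in shcontrol (log2 ratio -1.14) and chr6:26214002-26220180 had 49 against 60 (-1.04). In senescent shcontrol against control, the lowest with at least 100 PETs was chr6:27128325-27147456, with 20 PETs in senescent shcontrol against 260 in control and a log2 ratio of -2.81. The covered length there is 3.35 kb in the senescent set and 19.1 kb in the control set, and per covered kb the log2 ratio is -0.30. The anchors chr6:26042152-26050028 (16 against 149 PETs, -2.33), chr6:26267357-26277413 (28 against 255, -2.31), chr6:27093615-27117244 (56 against 322, -1.66) and chr6:27773040-27785509 (41 against 226, -1.59) followed. Per covered kb these 4 stood at -0.59, 0.08, -0.16 and -0.58. In shMETTL14 over shcontrol, chr6:27128325-27147456 stood at 0.08, from 36 PETs in shMETTL14 and 20 in shcontrol.

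Among the others with the most PETs, chr6:26117690-26131532 had 66.2 CPM in shMETTL14, 84.9 in shMETTL3, 118 in shcontrol and 216 in control. At chr6:27829395-27836994 there were 37.4 CPM in shMETTL14, 57.7 in shMETTL3, 90.6 in shcontrol and 195 in control. At both, the knockdowns were lowest and control highest.

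Some anchors did not follow the rest. The anchor chr6:26294740-26307764, which crosses the right edge of the first subcluster, had 129 CPM in shMETTL14, 101 in shMETTL3, 127 in shcontrol and 97.2 in control. Its log2 ratio was 0.03 in shMETTL14, -0.33 in shMETTL3 and 0.38 in shcontrol over control, and all 3 intervals hold 1. A pair of anchors has the same ends in both sets, although the anchors they are joined to differ in width. At chr6:27813555-27818089 there were 34.2 CPM in shMETTL14, 22.4 in shMETTL3, 30.8 in shcontrol and 41.1 in control, and all 4 intervals overlap. At chr6:27718907-27721959 there were 6 PETs in shMETTL14, 4 in shMETTL3, 4 in shcontrol and 14 in control, too few to compare. The anchor chr6:26146771-26148894, found in the senescent set only and singled out after its values were seen, had 38 PETs in shMETTL14, 11 in shMETTL3 and 10 in shcontrol. Its log2 ratio was 1.12 in shMETTL14, with fewer PETs than the rule asks for. It is the 1 higher anchor for shMETTL14 under a minimum of 20 PETs or none.

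**Figure D5:**
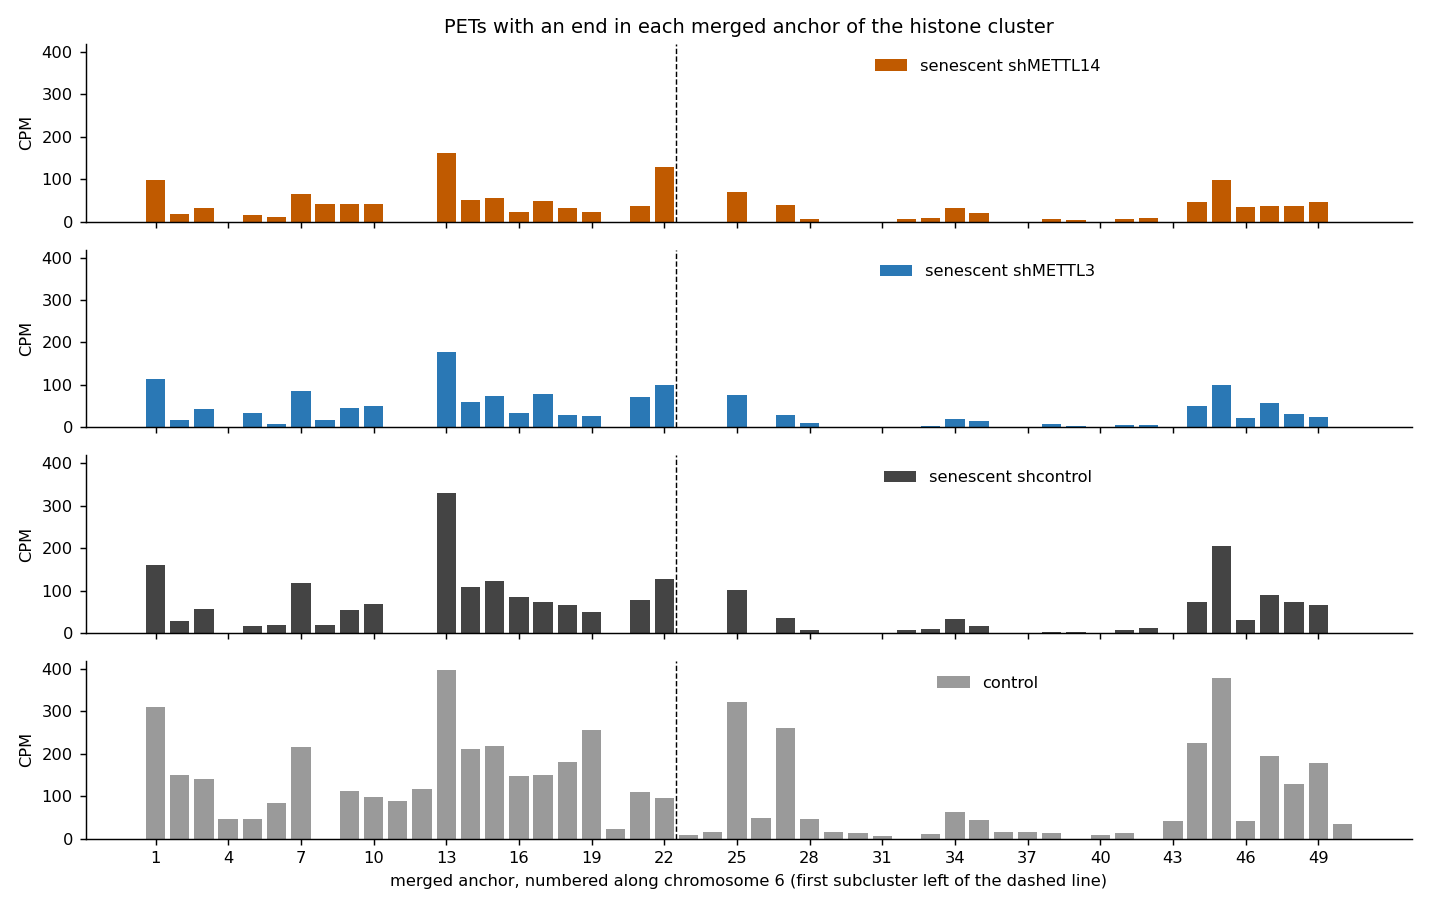
CPM with an end in each of the 50 merged anchors (vertical axis), numbered along chromosome 6, in the 4 libraries. Anchors 1 to 22 belong to the first subcluster, and most empty places are anchors missing from that library's anchor set, where no PET was counted. Anchors 13 and 45 have the most PETs, anchor 13 with 161 CPM in shMETTL14 against 399 in control and anchor 45 with 97.2 against 378.

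Among pairs of merged anchors, chr6:26193260-26208197 with chr6:26214002-26220180 had the most PETs within the first subcluster after scaling, at 12.8 CPM in shMETTL14, 17.6 in shMETTL3, 47.1 in shcontrol and 46.1 in control. This pair was close in shcontrol and control, and the knockdowns were lower. The pair chr6:26193260-26208197 with chr6:26221490-26228152 had 9.61 CPM in shMETTL14, 11.2 in shMETTL3, 23.5 in shcontrol and 33.1 in control. The pair chr6:26214002-26220180 with chr6:26221490-26228152 had 6.41 CPM in shMETTL14, 12.8 in shMETTL3, 12.7 in shcontrol and 39.1 in control, from 6 PETs in shMETTL14, 8 in shMETTL3 and 7 in shcontrol. Control was highest, and the senescent counts are too small to rank. Within the second subcluster, chr6:27786590-27809511 was joined to chr6:27829395-27836994 by 10.7 CPM in shMETTL14, 16.0 in shMETTL3, 29.0 in shcontrol and 52.1 in control. It was joined to chr6:27773040-27785509 by 9.61 CPM in shMETTL14, 14.4 in shMETTL3, 16.3 in shcontrol and 61.1 in control, from 9 PETs in each senescent library. In its left part, chr6:27093615-27117244 was joined to chr6:27128325-27147456 by 10.7 CPM in shMETTL14, 8.01 in shMETTL3, 10.9 in shcontrol and 50.1 in control. All these pairs were chosen by their CPM summed over the 4 libraries, to which control adds most.

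Between the subclusters, the pair with the highest CPM summed over the 4 libraries joined chr6:26015395-26036058 to chr6:27786590-27809511 over 1772 kb, with 2 PETs in shMETTL14, 0 in shMETTL3, 2 in shcontrol and 25 in control. Its place rests on control. A count of 0 was taken to allow up to 3 PETs, or 4.81 CPM in shMETTL3. This limit is not the exact Poisson interval used elsewhere, whose upper end for a count of 0 is higher. The pair chr6:26193260-26208197 with chr6:27786590-27809511, over 1597 kb, had 1 PET in shMETTL14, 0 in shMETTL3, 7 in shcontrol and 13 in control. The pair chr6:26193260-26208197 with chr6:27093615-27117244, over 905 kb, had 0 PETs in shMETTL14, 2 in shMETTL3, 3 in shcontrol and 14 in control. Of the interactions between the subclusters, 6 of 36 in shMETTL14, 3 of 23 in shMETTL3 and 8 of 55 in senescent shcontrol had at least 2 PETs. In control it was 71 of 121, with wider anchors. Depth is also larger in control, though close to that of shMETTL14 (998378 PETs against 936492). The share with at least 2 PETs over all interactions of each library is not given. No senescent library had a single interaction of more than 2 PETs there. A merged anchor can hold several anchors of a set, so PETs of a merged pair can be split over several interactions. The senescent part of chr6:26193260-26208197 covers 12.9 kb, while the widest senescent anchor of the first subcluster is 9.40 kb. Such splitting can lower the counts of interactions with at least 2 PETs.

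A loop was called where an interaction had 4 or more PETs and its deposited q-value was at most 0.01. Called loops numbered 5 in shMETTL14, 4 in shMETTL3, 9 in senescent shcontrol and 128 in control. With PETs of every library drawn down to 552029 and the deposited q-values kept, they numbered 2 in shMETTL14, 4 in shMETTL3, 9 in senescent shcontrol and 82 in control. Between the subclusters the senescent libraries had 0 called loops, and control had 29, or 14 at equal depth. At equal depth the cluster held 0.0138% of all called loops in shMETTL14, 0.0291% in shMETTL3, 0.0672% in shcontrol and 0.491% in control. Because a loop is counted per pair of anchors, the loop counts of the senescent libraries and of control rest on anchors of different widths. Splitting of PETs over several narrow anchors can lower the senescent loop counts.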

How the data were processed

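H3K27ac HiChIP was carried out on 4 IMR90 libraries, 1 per group. Per the submitters' processing notes, HiC-Pro 3.1.0 and build hg19 were used; the sources used here name no interaction caller and do not say whether PCR duplicates were removed. Each file lists pairs of anchors with a deposited raw count of PETs and a last column that was read as the authors' q-value for the interaction. Neither column has a header, and anchor starts were read as counted from 0 and are printed counted from 1.

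PETs were summed by set, scaled to 1000000 PETs of the library, and given with exact Poisson 95% intervals; ratios have exact conditional binomial intervals. No p-value was computed. The size rule was applied on all chromosomes to merged anchors holding anchors of the libraries compared, and of both sets where control was compared. It was also tested on simulated data, whose outcome is not given here. The members, lists, splits and rules were chosen with earlier results of these data known. Named anchors were the 10 with the most scaled PETs, of which those that carry a result are described, and those past the size rule with at least 100 PETs, up to 5 per direction and comparison; named pairs were the 3 strongest per set. Alternatives covered membership, scaling (edgeR 4.0.16 TMM), PET minimum, depth (seed 1), anchors and length. Python 3.11.15 with scipy 1.17.1 was used.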

Additional observations from a re-analysis of the deposited data

How the results depend on the processing

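The ratio of the cluster's CPM in senescent shcontrol over control, 0.483, stayed between 0.449 and 0.494 under 5 alternatives. It was 0.358 with interactions of at least 2 PETs, 0.113 with called interactions only and 0.562 on merged anchors present in both sets. Divided by a single covered length, it was 0.908. It was 0.442 without pairs inside 1 merged anchor, an alternative chosen after seeing the data. Between the subclusters the ratio was 0.0922 with at least 2 PETs and 0 with called interactions only (upper bound 0.0307). Both settings count single interactions, over which senescent PETs can be split. Divided by the product of covered lengths, the ratio between the subclusters was 1.12 (0.843 to 1.47), above 1 with an interval that holds 1. Anchors past the size rule numbered 1 per covered length, against 15. With called interactions only, the cluster's ratio was 0.354 for shMETTL3 over shcontrol, 0.258 for shMETTL14 over shcontrol and 0.730 for shMETTL14 over shMETTL3. Between the subclusters that setting gave no value for the knockdowns, since no senescent library has a called interaction there. With a minimum of 100 PETs, 1 anchor was past the rule for shMETTL3, against 5, and 4 for shMETTL14, against 8, where 5 were past it at equal depth. With a minimum of 20 PETs, or none, 9 were past it for shMETTL14, of which 1 was higher. Fewer anchors reach the higher minimum. Otherwise the cause was not tested. For these alternatives neither the number of cluster anchors tested nor the share of all anchors past the rule is given. The counts therefore have no background. Under the other alternatives the cluster's ratio to shcontrol stayed between 0.600 and 0.664 in shMETTL14 and between 0.644 and 0.674 in shMETTL3, and the ratio between the subclusters from 0.365 to 0.442 in shMETTL14 and from 0.317 to 0.383 in shMETTL3.

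No paired analysis was possible because each group is 1 library. No replicate was left out, with 1 per group. Values between the subclusters rest on few PETs in the senescent libraries. By the limit of 3 PETs, a count of 0 there was taken to allow 3.20 CPM in shMETTL14, 4.81 in shMETTL3 and 5.43 in senescent shcontrol.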
